A study of Homo sapiens with 8 samples.

Results

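C2H2 zinc finger proteins form one of the largest gene families of the human genome, and many of their genes sit in clusters on chromosome 19. This account covers the 226 genes of that chromosome whose symbol is ZNF followed by a number and whose transcripts carry a gene name in the combined assembly, out of 31382 genes and loci in the combined count table. They were chosen by name and position, not by their values, and their 1366 transcripts were summed per gene. They were set beside 220 genes of the same naming on other chromosomes. The cells of every sample were of H1, an established line of human embryonic stem cells, grown in mTeSR1 on Matrigel. There were 4 groups of 2 repeats: undifferentiated pluripotent cells (hPSC), and ectoderm, endoderm and mesoderm cultures derived from them and collected after 5 days. Ectoderm medium held KOSR with the inhibitors A83-01, PNU-74654 and Dorsomorphin. Endoderm medium held WNT3A and Activin A, and mesoderm medium held VEGF, BMP4 and bFGF, with Activin A in the opening day. The labels name no genetic edit, clone or sort in any group. Nothing in the labels says that the repeats were separate cultures, so p-values measure the spread between these libraries, which may be technical.

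Most of these proteins pair a KRAB box, a short domain near the start of the protein, with a row of C2H2 fingers. The fingers read DNA, and many family members bind transposable elements such as LTR, LINE-1 and SVA sequences. The KRAB box recruits TRIM28, which gathers SETDB1 and HP1 proteins and lays down repressive H3K9me3. The family grew by repeated local duplication, so neighbouring genes are often close copies of each other, and reads of close copies can be assigned to the wrong one. In the reference coding sequences a KRAB box was found in 195 of the 226 genes, 30 had none, and ZNF781 had no coding sequence listed. The median gene coded for 12 fingers, and ZNF91 held the most, with 32. How shared reads were counted is not given in the sources used here.

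The libraries held between 503840 and 1180888 reads, and 23767 reads in all fell on these genes, from 1402 in endoderm repeat 2 to 7109 in ectoderm repeat 1. A count of 0 allows up to 3 counts, which is between 2.54 and 5.95 CPM (read counts scaled to 1000000 reads in the library), and this limit covers counting error only. Each read stands for 1 transcript, so CPM was not divided by length. Of these genes, 121 had enough reads to be tested and 105 did not, the latter with at most 77 reads over all libraries. A gene was tested when it reached 17.4 CPM in at least 2 libraries. Of the 121 genes, 41 reached this only with the help of the deeper ectoderm libraries, 6 only with mesoderm, 5 only with endoderm and 1 only with hPSC. A gene let in through the group where it is high had to differ, so its p-value there is no independent support. The counts and medians over tested genes below thus lean to a rise in ectoderm and describe the tested genes, not all 226. Markers of the labelled layers followed the labels in ectoderm (5 of 6 tested markers higher than in hPSC) and endoderm (6 of 6). In mesoderm, 2 of 4 tested mesoderm markers were higher and 1 was lower, while 3 of 4 were higher in endoderm. TBXT had 1 read and MIXL1 none over both mesoderm repeats. There, 10 of 10 tested amnion and trophoblast markers were higher than in hPSC, with a summed level of 5822 and 6254 CPM against 19.6 to 82.0 CPM in the other libraries. Likewise 4 of 4 tested mesenchyme markers were higher, at 5577 and 6232 CPM against 125 to 377. In bulk RNA, fewer cells of a type and less RNA per cell cannot be told apart. The part of these cell types in the mesoderm values below was not tested.

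The start regions of 4 genes on which the results turn are shown first: the genes with the largest called rise in ectoderm (ZNF254), mesoderm (ZNF302) and endoderm (ZNF792), and the largest called fall in ectoderm (ZNF581). Each is the RefSeq sequence of the 250 bases before the annotated start, on GRCh38.p14, read 5′ to 3′ on the gene's strand, with every CG dinucleotide in capitals. These RefSeq starts are not always those of the assembled genes, and the windows of ZNF254 and ZNF581 lie inside the span of the gene in the deposited assembly. The windows are chr19:24086937-24087186 on the plus strand for ZNF254, chr19:34677428-34677677 on the plus strand for ZNF302, chr19:34964230-34964479 on the minus strand for ZNF792, and chr19:55643399-55643648 on the plus strand for ZNF581.
ZNF254: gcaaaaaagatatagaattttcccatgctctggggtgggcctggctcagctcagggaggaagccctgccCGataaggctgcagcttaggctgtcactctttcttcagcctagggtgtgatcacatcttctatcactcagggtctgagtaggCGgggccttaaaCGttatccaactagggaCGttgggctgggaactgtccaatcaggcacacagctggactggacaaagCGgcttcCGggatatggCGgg
ZNF302: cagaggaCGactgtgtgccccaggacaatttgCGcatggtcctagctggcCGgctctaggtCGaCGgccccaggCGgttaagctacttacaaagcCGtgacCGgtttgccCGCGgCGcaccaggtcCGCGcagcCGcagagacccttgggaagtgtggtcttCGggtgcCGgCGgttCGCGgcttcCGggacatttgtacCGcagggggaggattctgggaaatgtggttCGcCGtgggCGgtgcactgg
ZNF792: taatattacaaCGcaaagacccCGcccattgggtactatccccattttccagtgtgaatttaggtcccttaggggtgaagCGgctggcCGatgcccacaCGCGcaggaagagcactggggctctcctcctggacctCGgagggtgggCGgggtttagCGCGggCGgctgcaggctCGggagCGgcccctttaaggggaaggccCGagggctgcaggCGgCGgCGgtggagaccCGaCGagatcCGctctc
ZNF581: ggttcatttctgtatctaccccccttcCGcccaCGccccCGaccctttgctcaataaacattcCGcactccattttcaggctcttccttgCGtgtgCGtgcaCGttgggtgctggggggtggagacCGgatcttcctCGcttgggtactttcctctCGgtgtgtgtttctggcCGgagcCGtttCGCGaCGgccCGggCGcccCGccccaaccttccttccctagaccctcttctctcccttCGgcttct
ZNF254 held 7 CG dinucleotides, ZNF302 held 24, ZNF792 held 20 and ZNF581 held 19. CG-rich start regions are typical of genes active in many tissues. A window was matched for 200 of the 226 genes, and its median was 16 CG dinucleotides, against 11 over all 35114 promoters of the same length. Here and below the 200 are 1 window per gene. The 35114 were not cut to 1 per gene or to any kind of gene, so the sets are not alike. The low count of ZNF254 was shared by its neighbours: the median was 7 in the 7 matched genes from ZNF730 to ZNF254 and 8 in the 18 from ZNF101 to ZNF43. On the long arm it was 18.5 in each of the clusters ZNF565 to ZNF573, ZNF175 to ZNF331 and ZNF628 to ZNF446, and 15 in the 19 matched genes from ZNF576 to ZNF296. The 38 matched genes that rose in ectoderm, described below, had a median of 15, and the 73 other tested genes a median of 16. The letters CCAAT, the core of the box bound by NF-Y, were found on either strand in 50% of the 200 windows and in 32.0% of all promoters. The letters AAGATGGC, the core of the YY1 motif, were found in 4% against 1.36%, again on either strand. Among the genes that rose in ectoderm, 42.1% held CCAAT, and among the other tested genes 56.2%. CCAAT was not spread evenly over the family. All 18 windows from ZNF101 to ZNF43 and all 7 from ZNF730 to ZNF254 held it. From ZNF565 to ZNF569 only the window of ZNF260 did. The part of position in these shares was not tested.

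In total, the chromosome 19 zinc finger genes took the largest share of reads in ectoderm. They made up 0.342% and 0.311% of reads in hPSC, with 0.602% and 0.639% in the ectoderm libraries, 0.255% and 0.239% in those of endoderm and 0.383% and 0.402% in those of mesoderm. The groups did not overlap, and the order was endoderm, hPSC, mesoderm, ectoderm. The 220 zinc finger genes of other chromosomes followed the same order of group means, from 3078 and 3096 CPM in endoderm to 7495 and 8178 CPM in ectoderm. Of the 226 genes, 151 had their highest mean CPM in ectoderm and 138 their lowest in endoderm. The same shares over all genes were not counted. On library totals all 10782 tested genes had a median log2 fold change against hPSC of 0.43 in ectoderm and -0.48 in endoderm. The counts of 151 and 138 thus cannot be read as a trait of these genes.

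**Figure D1:**
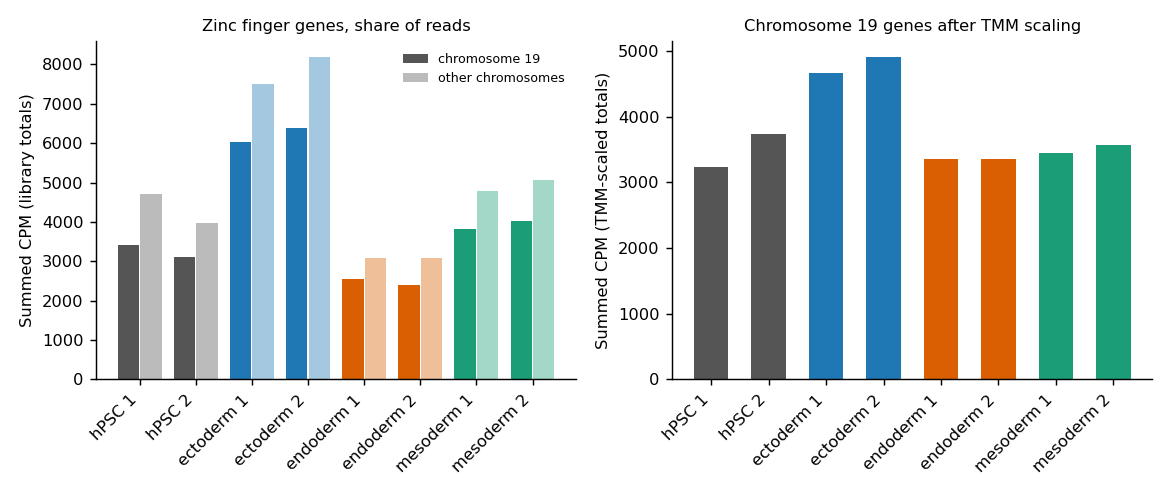
Left, summed CPM of the 226 chromosome 19 zinc finger genes (solid bars) and of the 220 on other chromosomes (pale bars) in each library; right, the chromosome 19 sum over TMM-scaled library totals. Both ectoderm bars are the highest in each panel, while the low endoderm bars of the left panel reach the hPSC range on the right.

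The libraries also differed in the length of the transcripts read, and this moved with the groups. How a library sampled transcripts and how far its cells expressed longer ones cannot be told apart here. The share of all reads from transcripts over 4000 nucleotides (nt) was 25.5% and 22.3% in hPSC, with 41.4% and 45.5% in the ectoderm libraries, 21.3% and 20.1% in those of endoderm and 32.0% and 33.1% in those of mesoderm. The finger array of such genes usually lies in a single large exon, and the median read-weighted transcript length over the 226 genes was 4239 nt. Values with the trend on transcript length removed are given below. TMM scaling, which centres the libraries on the bulk of genes and underlies all fitted fold changes here, used factors from 0.712 in endoderm repeat 2 to 1.30 in ectoderm repeat 2. On TMM-scaled totals the sums were 3241 and 3736 CPM in hPSC, with 4660.2 and 4903 in the ectoderm libraries, 3357 and 3359 in those of endoderm and 3445 and 3574 in those of mesoderm, so that ectoderm still stood above the other 6 libraries while endoderm and mesoderm lay within the hPSC range. Within reads of transcripts over 4000 nt alone, the genes took 0.680% and 0.733% in hPSC, with 0.866% and 0.868% in the ectoderm libraries, 0.652% and 0.656% in those of endoderm and 0.670% and 0.682% in those of mesoderm. In reads of 3000 to 4000 nt the share was 0.413% and 0.458% in hPSC against 0.668% and 0.669% in ectoderm.

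In ectoderm against hPSC, 41 of the 121 tested genes rose and 3 fell (edgeR's quasi-likelihood test with Benjamini-Hochberg adjustment at 0.05), beside 48.7% of all 10782 tested genes called in that comparison, 23.8% higher and 24.9% lower. The median log2 fold change of the 121 genes was 0.80, with quartiles of -0.07 and 1.62, against -0.02 over all genes and 0.40 over the 138 tested zinc finger genes of other chromosomes. With no filter, all 226 genes gave 65 higher and 3 lower with a median of 0.88. All 31382 genes and loci gave 12.1% higher, 8.13% lower and a median of 0.48. These include unnamed loci, and 10782 of them had enough reads to be tested, against 121 of the 226. The sets thus differ in read number, and their unfiltered shares are not like for like. The 594 other tested genes of chromosome 19 had a median of -0.96, with 29 higher and 277 lower there. Their transcripts were shorter, with a median length of 2729 nt against 4606 nt for the 121 genes. With the length trend removed, as described below, the median of the 594 was -0.55, with 18 higher and 169 lower, and that of the 121 was 0.27. On library totals without TMM factors the median of all genes moved from -0.02 to 0.43 in ectoderm, from -0.13 to -0.48 in endoderm and from 0.00 to 0.25 in mesoderm. The ectoderm median of the zinc finger genes became 1.26 on that scale, and their calls 64 higher and 1 lower. The share of all genes called on that scale was not counted.

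ZNF254 (chr19:24033446-24129968), a KRAB protein of the cluster from ZNF730 to ZNF254, showed the largest rise. It had 0 and 1 reads in hPSC, with 43 and 34 in the ectoderm libraries, 2 and 1 in those of endoderm and 1 and 5 in those of mesoderm. The ratio of pooled CPM in ectoderm over hPSC was 38.8, with a 95% counting interval from 6.75 to 1551, and the adjusted p was 0.00047 by edgeR. ZNF254 did not reach 17.4 CPM in any library outside ectoderm, so it was tested only through the group where it is high. ZNF91 of the same cluster, which is known to bind SVA elements, measured 5.78 and 5.34 CPM in hPSC and 51.7 and 36.2 in ectoderm, with 6.83 and 5.12 in endoderm and 15.1 and 31.8 in mesoderm. This was a log2 fold change of 2.54 ± 0.54 (SE, n = 2 against 2, adjusted p = 0.0014 by edgeR) in ectoderm. ZNF91 too was tested only with the help of the ectoderm libraries. ZNF43 of the cluster from ZNF101 to ZNF43 rose by 2.21 ± 0.46 on the same scale, from 5.78 and 8.90 CPM to 42.3 and 51.7 CPM. ZNF100 of the same cluster had 1 and 2 reads in hPSC against 41 and 22 in ectoderm, a pooled CPM ratio of 10.6 (95% counting interval 3.46 to 52.6, adjusted p = 0.0084 by edgeR). All 4 genes had both ectoderm repeats above both hPSC repeats. For ZNF254 and ZNF91, let in with the help of ectoderm, this is no independent support. ZNF93, known to bind LINE-1 elements, measured 17.3 and 30.2 CPM in hPSC and 63.5 and 71.3 in ectoderm, and its log2 fold change of 1.04 ± 0.42 missed the threshold (adjusted p = 0.051 by edgeR). ZNF90 measured 5.78 and 14.2 CPM in hPSC against 32.2 and 24.8 in ectoderm, with an adjusted p of 0.10.

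On the long arm, the cluster from ZNF565 to ZNF573 gave several of the largest rises. ZNF146, a short protein made almost only of fingers and also called OZF, measured 17.3 and 37.4 CPM in hPSC, with 201 and 190.2 in the ectoderm libraries, 25.6 and 20.5 in those of endoderm and 41.4 and 55.6 in those of mesoderm. Its log2 fold change in ectoderm was 2.37 ± 0.38 (SE, n = 2 against 2, adjusted p = 0.00018 by edgeR), and both ectoderm repeats lay above the other 6 libraries. ZNF260, like ZNF146 without a KRAB box, measured 3.85 and 7.12 CPM in hPSC, with 63.5 and 92.0 in the ectoderm libraries, 13.7 and 5.12 in those of endoderm and 28.2 and 19.8 in those of mesoderm. It rose by 3.34 ± 0.52 in ectoderm (adjusted p = 0.00014) and by 1.85 ± 0.64 in mesoderm (adjusted p = 0.035, edgeR). ZNF382 had 2 and 0 reads in hPSC and 32 and 23 in ectoderm, a pooled CPM ratio of 13.8 (95% counting interval 3.65 to 117). ZNF302, which lies before this cluster at chr19:34677655-34686396, measured 9.63 and 3.56 CPM in hPSC, with 56.7 and 69.3 in the ectoderm libraries, 3.42 and 0 in those of endoderm and 35.8 and 35.7 in those of mesoderm. It rose by 2.83 ± 0.50 in ectoderm (adjusted p = 0.00038) and by 2.21 ± 0.57 in mesoderm (adjusted p = 0.0072, edgeR). ZNF160, a KRAB protein of 20 fingers in the cluster from ZNF175 to ZNF331, measured 36.6 and 17.8 CPM in hPSC, with 124 and 135 in the ectoderm libraries, 6.83 and 8.53 in those of endoderm and 45.2 and 67.5 in those of mesoderm. Its log2 fold change in ectoderm was 1.86 ± 0.35 (adjusted p = 0.00059 by edgeR), and the 4 groups did not overlap.

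**Figure D2:**
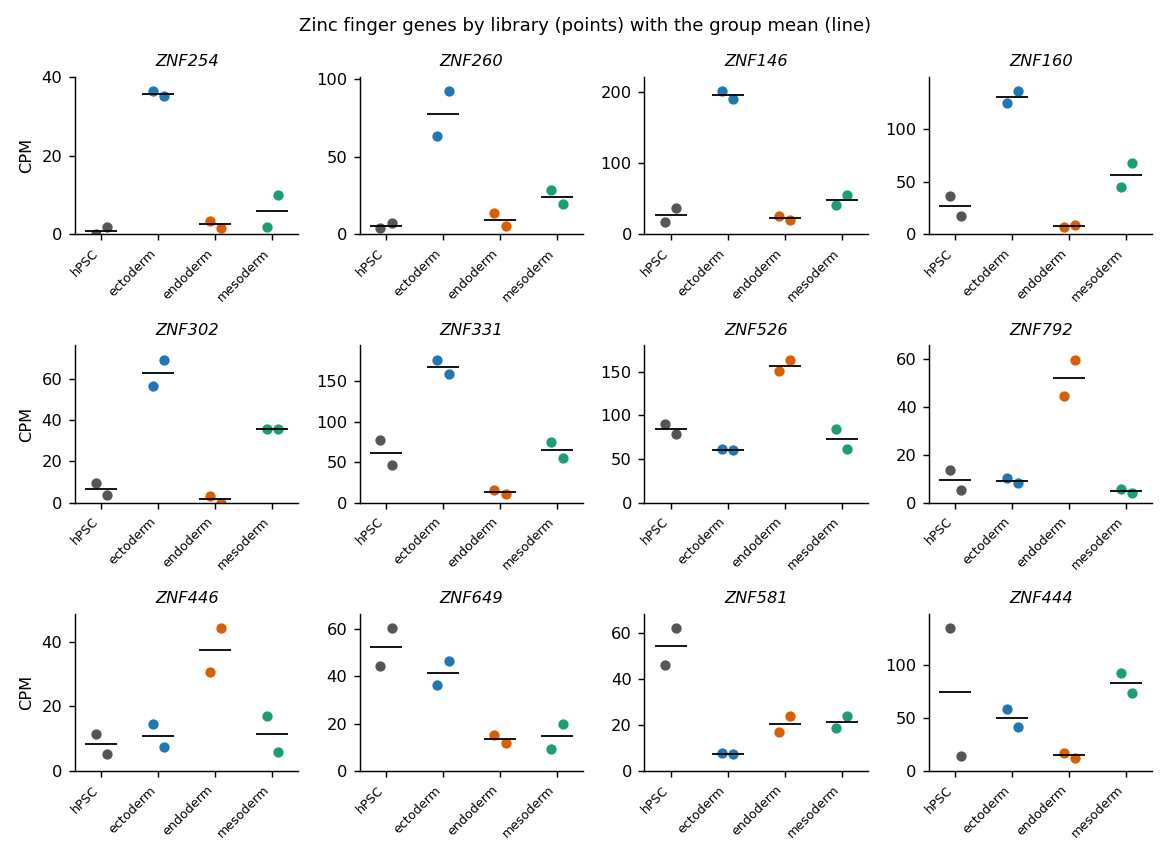
CPM of 12 zinc finger genes in each library (points, 2 repeats a group) with the group mean (line), each panel with its own linear axis from 0. The upper row and ZNF302 are highest in ectoderm, ZNF526, ZNF792 and ZNF446 in endoderm, ZNF649 and ZNF581 in hPSC, and ZNF444 has hPSC repeats of 135 and 14.2 CPM.

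Few of the genes fell in ectoderm. ZNF581, a short protein of 4 fingers without a KRAB box and with a read-weighted transcript length of 1210 nt, measured 46.2 and 62.3 CPM in hPSC, with 7.62 and 7.24 in the ectoderm libraries, 17.1 and 23.9 in those of endoderm and 18.8 and 23.8 in those of mesoderm. It fell by 3.27 ± 0.42 on the log2 scale in ectoderm (adjusted p = 3.1e-05) and by 1.60 ± 0.41 in mesoderm (adjusted p = 0.0071, edgeR). ZNF576 and ZNF526, also without a KRAB box, were the other two. ZNF576 measured 30.8 and 24.9 CPM in hPSC and 21.2 and 14.5 in ectoderm (adjusted p = 0.041), and its call was lost without any single one of the 8 libraries (adjusted p up to 0.35, edgeR). The calls of ZNF254, ZNF91, ZNF43, ZNF146, ZNF260, ZNF382, ZNF302, ZNF160, ZNF253 and ZNF581 in ectoderm held in all 8 fits that left out 1 library. For genes tested only with the help of ectoderm, ZNF254 and ZNF91 among them, this is no independent support. The call of ZNF100 was lost without ectoderm repeat 1 (adjusted p = 0.078), that of ZNF224 without either ectoderm repeat (up to 0.075) and that of ZNF559 without hPSC repeat 1 or ectoderm repeat 1 (up to 0.15). In ectoderm 26 genes were called without ectoderm repeat 2 and 29 without ectoderm repeat 1, in place of 44. With 1 library left out the filter asks for 1 library rather than 2, so these fits tested 145 and 137 genes, not 121, and between 137 and 150 genes in all such fits. DESeq2 called 13, with 12 higher and 1 lower, and 27 at an unadjusted p under 0.05. The share of all genes called was not counted for DESeq2 or with a library left out, here and below.

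In endoderm against hPSC, 6 genes rose and 3 fell, beside 27.4% of all genes called, 13.5% higher and 13.9% lower, and the median log2 fold change was -0.06 against -0.13 over all genes. ZNF792, a KRAB protein of 13 fingers (chr19:34956354-34964229), measured 13.5 and 5.34 CPM in hPSC, with 10.2 and 8.27 in the ectoderm libraries, 44.4 and 59.7 in those of endoderm and 5.65 and 3.97 in those of mesoderm. It rose by 2.82 ± 0.46 (SE, n = 2 against 2, adjusted p = 0.00038 by edgeR), and both endoderm repeats lay above the other 6 libraries. ZNF792 reached 17.4 CPM in endoderm only, so it was tested only through the group where it is high. ZNF446 measured 11.6 and 5.34 CPM in hPSC against 30.7 and 44.4 in endoderm, a log2 fold change of 2.49 ± 0.56 (adjusted p = 0.0039). ZNF324 measured 11.6 and 21.4 CPM in hPSC against 27.3 and 51.2 in endoderm, 1.56 ± 0.48 (adjusted p = 0.025). These are the last 2 of the 226 genes before the end of the chromosome, on the same strand: the deposited assembly ends ZNF324 at position 58475436 and starts ZNF446 at 58475437. ZNF611 rose in endoderm by 1.51 ± 0.47 (adjusted p = 0.025) and in ectoderm by 1.11 ± 0.43 (adjusted p = 0.043), by edgeR. Its ectoderm call was lost without any 1 of the hPSC or ectoderm libraries (adjusted p up to 0.13). ZNF114 measured 15.4 and 24.9 CPM in hPSC and 44.4 and 35.8 in endoderm (adjusted p = 0.031 by edgeR).

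ZNF526 and ZNF331 were called in opposite directions in endoderm and ectoderm. ZNF526, one of the most abundant genes of the set, measured 90.5 and 78.3 CPM in hPSC, with 61.0 and 60.0 in the ectoderm libraries, 150.3 and 164 in those of endoderm and 84.7 and 61.5 in those of mesoderm. Its log2 fold change was 1.23 ± 0.31 in endoderm (adjusted p = 0.0073) and -0.90 ± 0.31 in ectoderm (adjusted p = 0.025, edgeR). ZNF331, an imprinted KRAB gene at the end of the cluster from ZNF175, measured 77.03 and 46.3 CPM in hPSC, with 177 and 159 in the ectoderm libraries, 15.4 and 10.2 in those of endoderm and 75.3 and 55.6 in those of mesoderm. Its log2 fold change was -1.90 ± 0.42 in endoderm (adjusted p = 0.0033) and 1.05 ± 0.31 in ectoderm (adjusted p = 0.011). Between ectoderm and endoderm the difference was 2.95 ± 0.38 for ZNF331 and -2.13 ± 0.30 for ZNF526, with adjusted p of 1.1e-05 and 2.5e-05 by edgeR. On library totals the ZNF526 value in ectoderm was -0.44 and no longer called (adjusted p = 0.21). It was also lost when any 1 of the ectoderm, endoderm or mesoderm libraries was left out (adjusted p up to 0.19). With the length trend removed, as described below, the ZNF331 value in ectoderm was 0.66 (adjusted p = 0.10). The ZNF331 calls were lost without ectoderm repeat 1 in ectoderm (adjusted p = 0.081) and without endoderm repeat 2 in endoderm (adjusted p = 0.069).

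ZNF649 fell in endoderm and in mesoderm, from 44.3 and 60.5 CPM in hPSC to 15.4 and 11.9 in endoderm and 9.41 and 19.8 in mesoderm, with 36.4 and 46.5 in ectoderm. The log2 fold changes were -1.62 ± 0.46 (adjusted p = 0.016) and -2.09 ± 0.46 (adjusted p = 0.0026, edgeR). It is a KRAB protein of 10 fingers, and both its low groups lay below both hPSC repeats. ZNF444 was also called lower in endoderm, at -1.92 ± 0.67 (adjusted p = 0.043), but its hPSC repeats were 135 and 14.2 CPM against 17.1 and 11.9 in endoderm. Without hPSC repeat 1 its value was 0.21 (adjusted p = 0.86), so the call rested on that library. Of the other endoderm calls, ZNF792 and ZNF526 held in all 8 fits that left out 1 library. ZNF792 was tested only through endoderm, so this is no independent support for its rise. ZNF446 was lost without endoderm repeat 2 (adjusted p = 0.063), ZNF324 without hPSC repeat 1 or endoderm repeat 2 (up to 0.24) and ZNF611 and ZNF649 without hPSC repeat 2 or either endoderm repeat (up to 0.13). ZNF114 was lost without hPSC repeat 1, ectoderm repeat 1 or either endoderm repeat (up to 0.17). With endoderm repeat 2 left out, 2 genes were called, with endoderm repeat 1 left out 5, and with hPSC repeat 2 left out 19. On library totals the endoderm split turned to 3 higher and 14 lower, where the median of the 121 genes was -0.41 and that of all genes -0.48. DESeq2 called 3 genes there, and 9 at an unadjusted p under 0.05.

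In mesoderm against hPSC, 10 genes rose and 6 fell, beside 35.2% of all genes called, 16.9% higher and 18.3% lower, with a median log2 fold change of 0.27 against 0.00 over all genes. Besides ZNF302 and ZNF260, the largest rises were those of ZNF430 and ZNF44. ZNF430 measured 3.85 and 8.90 CPM in hPSC and 15.1 and 43.7 in mesoderm, 1.90 ± 0.68 (adjusted p = 0.038). ZNF44 measured 7.70 and 8.90 CPM in hPSC, with 11.01 and 11.4 in the ectoderm libraries, 10.2 and 5.12 in those of endoderm and 26.4 and 43.7 in those of mesoderm, 1.81 ± 0.53 (adjusted p = 0.015 by edgeR). The ZNF44 values in mesoderm stood above all 6 other libraries, and ZNF44 was tested only through mesoderm, where it is high. ZNF91 rose by 1.80 ± 0.63 (adjusted p = 0.036) and ZNF224 by 1.76 ± 0.62 (adjusted p = 0.039), and these comparisons use the same hPSC libraries as those of ectoderm. ZNF121 fell, from 34.7 and 19.6 CPM in hPSC to 16.9 and 3.97 in mesoderm, as did ZNF576, from 30.8 and 24.9 to 13.2 and 11.9. The ZNF302 call held in all 8 fits that left out 1 library. ZNF44 was lost without hPSC repeat 1 or mesoderm repeat 2 (adjusted p up to 0.15), ZNF649 without mesoderm repeat 1 (0.060) and ZNF581 without hPSC repeat 2 or mesoderm repeat 1 (up to 0.082). ZNF260, ZNF91 and ZNF430 were each lost in 3 of the 8 fits, ZNF224 in 4, ZNF121 in 6 and ZNF576 in all 8 (adjusted p up to 0.41). Without mesoderm repeat 2, 5 genes were called, and without hPSC repeat 1, 25. DESeq2 called 1 gene, with 9 at an unadjusted p under 0.05, and the length-corrected fit described below called 5 higher and 9 lower, beside 31.6% of all genes. In that fit ZNF260 (adjusted p = 0.066), ZNF91 (0.082), ZNF430 (0.10) and ZNF581 (0.067) missed the threshold. On library totals 16 were higher and 2 lower, where the median of the 121 genes was 0.52 and that of all genes 0.25.

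Between the layers, ectoderm differed most from endoderm. There 49 genes were higher in ectoderm and 9 lower, beside 63.1% of all genes called, 33.0% higher and 30.1% lower. Against mesoderm, 24 genes were higher in ectoderm and 3 lower, beside 35.5% of all genes, 18.2% higher and 17.4% lower. Endoderm against mesoderm gave 10 higher and 17 lower, beside 47.2% of all genes, 23.3% higher and 23.9% lower. Across all 4 groups, 66 of the 121 genes differed, beside 77.8% of all genes. These shares depend on which genes were tested: with endoderm and mesoderm fitted alone, 61 of the 226 genes were tested and 19 called. Ectoderm against mesoderm gave between 7 and 10 genes without any 1 of the ectoderm or mesoderm libraries, and 43 without hPSC repeat 1 and 46 without hPSC repeat 2, where 150 genes were tested in place of 121. Endoderm against mesoderm gave 14 genes without endoderm repeat 1, 12 without endoderm repeat 2 and 13 without mesoderm repeat 2.

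By position, the change of the tested genes in ectoderm was uneven along the chromosome. The counts by block stand beside 23.8% of all tested genes higher and 24.9% lower in ectoderm against hPSC. The 226 genes were split into 16 blocks, where a block is a run of genes that start within 1000000 bases of the one before. The 14 tested genes of block 10 (ZNF565 to ZNF573, chr19:36181848-37779936) had a median log2 fold change of 1.87 in ectoderm and 10 of them rose, ZNF146, ZNF260 and ZNF382 among them. The median was 1.74 in the 5 tested genes of block 6 (ZNF730 to ZNF254), of which 4 rose. It was 1.13 in the 18 of block 5 (ZNF101 to ZNF43), of which 7 rose, and 1.11 in the 21 of block 15 (ZNF175 to ZNF331), of which 12 rose. The largest block, 16, runs from ZNF628 to ZNF446 near the end of the long arm (chr19:55476611-58483331) and holds 57 genes. There 1 of 33 tested genes rose, 1 fell, and the median was -0.01. The gene that rose was ZNF606, named after its values were seen, at 11.6 and 14.2 CPM in hPSC and 66.9 and 74.4 in ectoderm. On the short arm, block 2 (ZNF557 to ZNF846) had a median of -0.11 with 1 of 9 higher, the KRAB gene ZNF559.

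**Figure D3:**
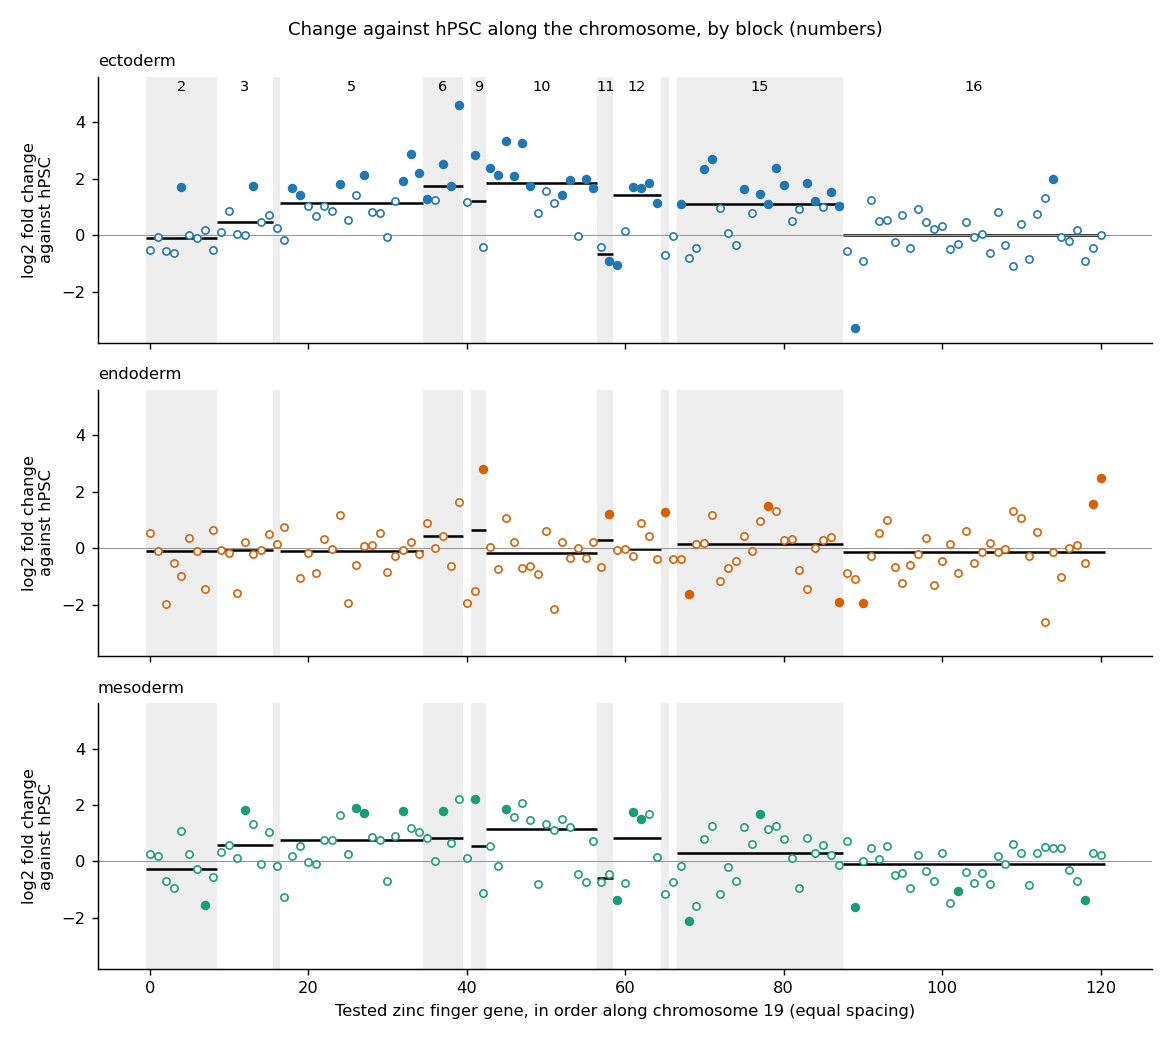
Log2 fold change against hPSC of the 121 tested zinc finger genes in order along chromosome 19, with filled points for an adjusted p under 0.05, bars for block medians and shading for alternate blocks. In ectoderm the block medians reach 1.87 in block 10, and block 16 has a median of -0.01.

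The sums over all genes of a block do not depend on the filter. The genes of block 10 summed to 277 and 254 CPM in hPSC and 822 and 837 in ectoderm, and those of block 6 to 34.7 and 40.9 against 189 and 181. With no filter, the median over all 24 genes of block 10 was 1.51, over the 7 of block 6 1.496, over the 21 of block 5 1.35, over the 39 of block 15 1.16 and over the 57 of block 16 0.22. Block 16 summed to 1001 and 863 CPM in hPSC and 1184 and 1287 in ectoderm, and 712 and 735 in endoderm. Neighbouring tested genes differed in their ectoderm change by a median of 0.74 on the log2 scale, members of the same block by 0.79, and all pairs by 1.07. In endoderm these 3 values were 0.84, 0.87 and 0.85. In mesoderm the block medians ran from 1.17 in block 10 and 0.83 in block 12 to -0.10 in block 16 and -0.26 in block 2. In endoderm, among blocks of 5 or more tested genes, they lay between -0.17 and 0.43.

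Against transcript length, the change in ectoderm rose less steeply for these genes than for all genes. In bins of the read-weighted mean transcript length, the median log2 fold change was -0.56 for the 5 tested genes under 2000 nt, -0.25 for the 10 of 2000 to 3000 nt, 0.23 for the 16 of 3000 to 4000 nt, 1.04 for the 41 of 4000 to 5000 nt and 0.84 for the 49 of 5000 nt and over. Over all genes the same bins gave -1.31, -0.65, -0.03, 0.31 and 0.94. The zinc finger genes were thus above all genes in the 4 shorter bins and 0.84 against 0.94 in the longest. Across genes, which are not independent replicates and share their libraries, Spearman's rho between length and change was 0.28 over the 121 zinc finger genes, 0.56 over the 138 of other chromosomes and 0.54 over all genes. In mesoderm rho was 0.23 for the 121 genes and 0.28 for all genes, and in endoderm 0.10 and -0.08.

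**Figure D4:**
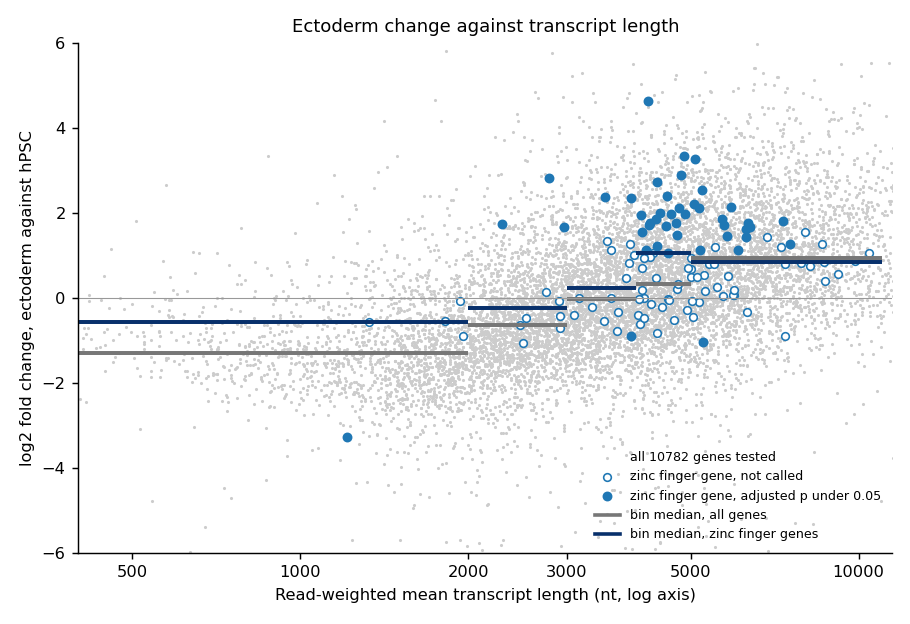
Log2 fold change in ectoderm against hPSC by transcript length (nt, log axis) for all 10782 tested genes (grey) and the 121 zinc finger genes (blue, filled at an adjusted p under 0.05), with bars for the median of each length bin. From 4000 to 5000 nt the zinc finger median is 1.04 and that of all genes 0.31; from 5000 nt the medians are 0.84 and 0.94.

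When a smooth trend of counts on transcript length was taken out of each library, 23 genes remained higher in ectoderm, all 23 among the 41, and 7 were lower, beside 35.8% of all genes called in that fit, 16.4% higher and 19.4% lower. The median of the 121 genes went from 0.80 to 0.27, against -0.08 over all genes. ZNF302, with transcripts of 2792 nt, had a value of 3.10 after the correction, ZNF254 4.35, ZNF260 2.87 and ZNF146 2.27, and all 4 stayed past the threshold by edgeR. ZNF253, with transcripts of 6278 nt, went from 1.42 (adjusted p = 0.0034) to 0.69 (adjusted p = 0.13). Block 6 had a corrected median of 2.00, block 10 of 1.43, block 15 of 0.66, block 5 of 0.62 and block 16 of -0.21, so that block 16 again lay below the other 4. A split made after the values were seen kept only KRAB genes of 4000 nt or more. In it the 4 genes of block 6 had a median of 1.90, the 11 of block 10 of 1.76, the 5 of block 12 of 1.69, the 17 of block 15 of 1.12, the 15 of block 5 of 1.05, the 6 of block 3 of 0.59, the 19 of block 16 of 0.22 and the 4 of block 2 of -0.32. With the length trend removed as well, the medians of blocks 10, 16 and 2 were 1.34, -0.45 and -0.78.

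**Figure D5:**
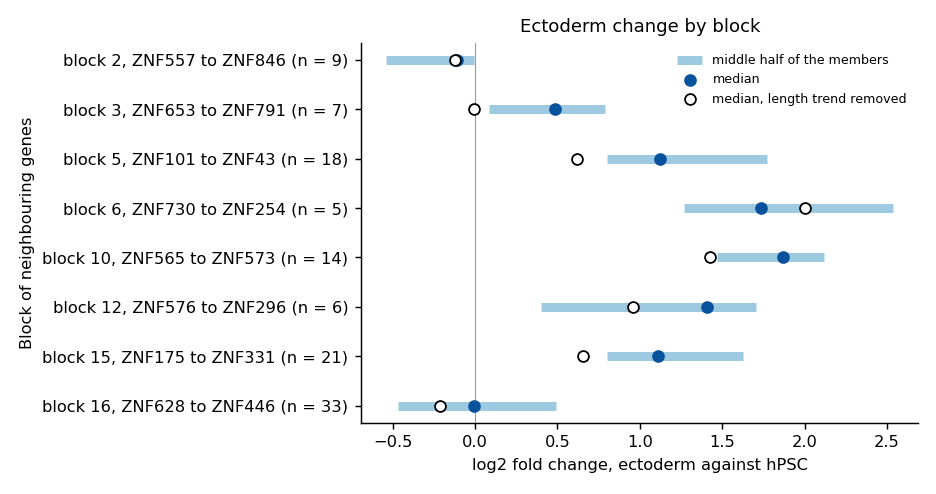
Median log2 fold change in ectoderm against hPSC for blocks with 5 or more tested genes (blue points, bars between the quartiles of the genes), and the median after the length trend was removed (open points). Block 10 lies at 1.87 and 1.43, block 16 at -0.01 and -0.21.

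By protein type, the 106 tested KRAB genes gave 38 higher and 0 lower in ectoderm with a median of 0.81, and the 15 tested genes without a KRAB box 3 higher and 3 lower with a median of -0.30. After the length correction these medians were 0.25 and 0.31. In proteins of 14 or more fingers, 20 of 43 tested genes rose and 0 fell, with a median of 1.26 and 0.84 after the correction. In those of 10 to 13 fingers, 14 of 48 rose and 1 fell, with medians of 0.54 and -0.03. In those of 1 to 9 fingers, 7 of 29 rose and 2 fell, with medians of -0.01 and -0.10. Over all genes, 23.8% were higher and 24.9% lower in ectoderm. The shares that rose without a KRAB box (20.0%) and with 1 to 9 fingers (24.1%) were near that of all genes. The 5 genes with the highest mean CPM, on the other hand, showed no call of a rise in ectoderm. ZNF574 measured 206 and 205 CPM in hPSC and 192 and 225 in ectoderm, and ZNF875 106 and 101 against 140.0 and 134. ZNF766 measured 108 and 87.2 CPM in hPSC and 132 and 141 in ectoderm, and ZNF317 90.5 and 167 against 105 and 127. ZNF526 is described above.

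Several family members with known roles in embryonic cells were too low to test. ZNF534, a KRAB gene, had 0 reads in both hPSC repeats and 4 and 5 in ectoderm. ZNF808, known for a part in pancreas formation, had 8 and 6 reads in hPSC, with 17 and 9 in the ectoderm libraries, 10 and 8 in those of endoderm and 10 and 5 in those of mesoderm. ZNF296, a pluripotency-associated gene, had 9 and 2 reads in hPSC and 0 and 1 in mesoderm. ZNF350 and ZNF471 had between 0 and 9 reads in every library. ZNF274, which marks clusters of its own family with H3K9me3, was tested and measured 42.4 and 39.1 CPM in hPSC and 45.7 and 48.6 in ectoderm, and its fitted log2 fold change, which is on TMM-scaled totals and not on CPM, was -0.22 ± 0.36 (adjusted p = 0.65 by edgeR). ZNF264, ZNF154 and ZNF765 likewise missed the threshold in all 3 layers. ZNF208, ZNF257, ZNF676 and ZNF98 were not analysed here.

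Long reads also give the transcripts of each gene. Of all reads on these genes, 39.6% fell on assembled transcripts that did not match a reference transcript, against 16.9% over other named genes, and ZNF875 had the most transcripts, 38. Of the 1366 transcripts, 57 of 47 genes were tested. In ectoderm 20 rose and 1 fell, beside 45.9% of all tested transcripts called. In endoderm 6 rose and 6 fell (26.7%), and in mesoderm 3 rose and 3 fell (32.8%). With 1 library left out, between 77 and 93 transcripts were tested in place of 57. The ectoderm count went from 21 to 35 without hPSC repeat 1, 33 without hPSC repeat 2 and 32 without mesoderm repeat 1. The endoderm count went from 12 to 4 and 1 without endoderm repeats 1 and 2. The mesoderm count went from 6 to 14 without hPSC repeat 1, 10 without endoderm repeat 2, 1 without mesoderm repeat 1 and 3 without mesoderm repeat 2. ZNF146 had 3 tested transcripts and all 3 rose in ectoderm, among them an unmatched one of 3761 nt with 1 read in each hPSC repeat and 29 and 33 in ectoderm. Of the 2 tested transcripts of ZNF526, the shorter one of 3017 nt went from 2 and 2 reads in hPSC to 11 and 13 in endoderm (2.69 on the log2 scale, adjusted p = 0.005), and the longer one of 4005 nt rose by 1.04 (adjusted p = 0.023, edgeR). Both tested ZNF444 transcripts were high in hPSC repeat 1 (45 and 14 reads) and low in hPSC repeat 2 (3 and 2 reads).

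The partners through which KRAB proteins silence chromatin were read from a list of 22 genes, of which 21 were tested. In ectoderm 10 rose and 3 fell, in endoderm 1 rose and 2 fell, and in mesoderm 5 rose and 4 fell, with medians of 0.96, -0.67 and 0.20. Over all genes, 23.8% were higher and 24.9% lower in ectoderm, while endoderm had 13.5% and 13.9% and mesoderm 16.9% and 18.3%. TRIM28, the common corepressor and itself a gene of chromosome 19, fell in all 3 layers, by 1.43 in ectoderm (adjusted p = 0.0043), by 1.17 in endoderm (adjusted p = 0.028) and by 1.29 in mesoderm (adjusted p = 0.013, edgeR). It had 176 and 235 reads in hPSC, 260 and 157 in the deeper ectoderm libraries, 66 and 92 in endoderm, and 129 and 64 in mesoderm. SETDB1, the H3K9 methyltransferase, passed no test against hPSC, at -0.82 in ectoderm (adjusted p = 0.09). ATF7IP, which stabilises SETDB1, rose in ectoderm by 2.99 (adjusted p = 7.6e-06), with 22 and 20 reads in hPSC and 448 and 436 in ectoderm. The HUSH subunit TASOR rose by 2.75 and the chromatin remodeller ATRX by 2.69 there, while the ATRX partner DAXX fell by 1.61. With the length trend removed, 6 of the 21 rose in ectoderm and 3 fell, with a median of 0.30, beside 16.4% and 19.4% of all genes.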

How the data were processed

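Polyadenylated RNA of 8 libraries was read on the PacBio Sequel II. Per the submitters' processing notes, reads were handled with minimap2 and StringTie on GRCh38, and the versions, the counting of shared reads and the use of strand are not given in the sources used here. The deposited combined table holds the authors' raw read counts per transcript. Its endoderm columns, recorded under the unit of expected counts because a name check misread their headers, hold whole raw read counts as deposited by the authors, and nothing was rounded. Short-read libraries were not analysed here.

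Transcripts were summed per gene. All 8 libraries entered 1 fit in edgeR 4.0.16 (R 4.3.3) with TMM factors, a filter by group with a minimum count of 10 and the quasi-likelihood test, with p-values adjusted by Benjamini-Hochberg over all 10782 genes or 12440 transcripts and a threshold of 0.05. SE is the log2 fold change over the square root of F. Alternatives were DESeq2 1.42.0, other scalings and filters, a replicate block, a loess on transcript length (span 0.5), reference-matching transcripts, libraries thinned to the smallest total and each library left out. On data simulated from these libraries, with 200 of 10782 genes changed by 4-fold, 72.5% were recovered in ectoderm, 75% in endoderm and 65% in mesoderm, with 7.64%, 6.25% and 5.80% false calls. The simulation changed far fewer genes than were called in the data and held no trend on transcript length. Its rates therefore check the code and do not describe the real comparisons. KRAB boxes and fingers were read from translated GENCODE 29 coding sequences in place of the planned RefSeq proteins. Tables were made with Python 3.11.15.

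Genes were named where they were among the 4 highest or lowest called changes of a layer with at least 20 reads in the higher group, the 5 most abundant, the called gene of smallest p in a block, members of a list of genes of known role, or genes with transcripts called in opposite directions. The members and lists were chosen with earlier results of these data known. The replicate numbers did not pair the samples.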

Additional observations from a re-analysis of the deposited data

Results flagged for a closer look

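The change against hPSC differed between ectoderm and endoderm for ZNF331, by 2.95 on the log2 scale (adjusted p = 1.1e-05 by edgeR), and for ZNF526, by -2.13 (adjusted p = 2.5e-05 by edgeR). Both are given because each gene was called in opposite directions in the 2 layers and the difference itself was tested, as ectoderm against endoderm. The genes were thus chosen by calls from the same libraries, so these p-values are no independent support. The ZNF526 fall in ectoderm was lost in 6 of the 8 fits that left out a library, and on library totals. The ZNF331 calls against hPSC were each lost without a particular repeat of their layer. The difference between ectoderm and endoderm was kept in all 8 of these fits for both genes. The hPSC libraries are shared by both changes and cancel in this difference.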

How the results depend on the processing

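DESeq2 called 13 genes in ectoderm, 3 in endoderm and 1 in mesoderm against hPSC, 21 between ectoderm and endoderm, 2 between ectoderm and mesoderm, 7 between endoderm and mesoderm, 19 in the joint test of any difference among the 4 groups, and 6, 1 and 0 transcripts in the 3 layers, with 31 and 9 transcripts of ectoderm and mesoderm at an unadjusted p under 0.05. With reference-matching transcripts only, the counts were 28 in ectoderm, 5 in mesoderm, 16 between ectoderm and mesoderm, 10 between endoderm and mesoderm and 40 in the joint test, and the summed CPM was 2095 in hPSC and 3720.5, 1477 and 2322 in ectoderm, endoderm and mesoderm. With no filter 68 genes were called in ectoderm, and with a minimum count of 3 transcripts gave 63 in ectoderm and 16 in mesoderm. On library totals, a scaling added after the data were seen, 17 genes were called in endoderm and 88 between ectoderm and endoderm. The medians of all genes moved on that scale too, and their share called was not counted. TMM-scaled sums were 3489 CPM in hPSC and 4781, 3358 and 3509.5 in the 3 layers. With the length trend removed, 16 genes differed between ectoderm and mesoderm. With only the 2 groups compared, 8 were called in mesoderm and 44 between ectoderm and mesoderm. The causes were not tested. The share of all genes or transcripts called was not counted for DESeq2, reference-matching transcripts, the minimum count of 3 or the 2-group fits. Nor was it counted for the replicate block or the fits with 1 library left out, given next. Such fits can test other sets of genes, so these counts cannot be read as a trait of the zinc finger genes.

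Leaving out 1 library gave 26 to 53 genes in ectoderm, 2 to 19 in endoderm, 5 to 25 in mesoderm, 42 to 83 between ectoderm and endoderm, 7 to 46 between ectoderm and mesoderm, 12 to 39 between endoderm and mesoderm and 47 to 93 in the joint test, with 137 to 150 genes tested in place of 121. For transcripts it gave 17 to 35, 1 to 17 and 1 to 14 in the 3 layers. Signs turned for ZNF444, which ran from -1.62 without hPSC repeat 2 to 1.24 without hPSC repeat 1 in ectoderm, from -2.71 to 0.21 in endoderm and from -0.78 to 2.14 in mesoderm, and for ZNF875 between ectoderm and endoderm on library totals (0.77). Deviations of same-numbered libraries correlated at -0.03 to 0.15, so the numbers were not taken as pairs. With the replicate block 43 genes were called in ectoderm, 9 in endoderm and 15 in mesoderm, and with the block and the length trend removed 28 in ectoderm and 15 between ectoderm and mesoderm. Of 216 changes of named genes, 85 were called, of which DESeq2 lost 53 and the removal of the length trend 24. Depth limited 105 of the 226 genes, which were too low to test.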
